A study of Bos taurus with 18 samples.

Results

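The regions described here are the first megabase of each of the 29 autosomes of cattle, measured in sperm DNA. Each autosome was divided into tiles of 2000 bp starting at its first base in the UMD3.1 assembly. A tile up to position 1000000 was kept if at least 9 of the 18 bulls listed at least 1 CpG position in it. Of 14500 possible tiles, 13129 met this rule, 1248 were listed in 1 to 8 bulls and 123 held no listed position in any bull. The 13129 tiles were 1.12% of the 1176978 autosomal tiles that met the same listing rule. The other 1163849 tiles lay beyond the first megabase of the same autosomes and served for comparison. The choice of tiles used position and listing only, so their methylation level was free to differ. Tiles on either side of the edge of the rule had similar levels. The mean was 49.97% in the 487 tiles listed in exactly 9 bulls and 49.7% in the 372 tiles listed in exactly 8. These sets adjoin in listing, so they cannot show whether the level depends on the number of listing bulls.

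All cattle autosomes are acrocentric, which means that the centromere lies close to one end of the chromosome, and assemblies number the bases from that end. Centromeres of cattle are flanked by long arrays of satellite DNA, which are tandem repeats rich in CpG, and the sequence beside them holds satellite remnants and recent duplications. Cytosine methylation at CpG dinucleotides usually keeps such repeats compact and silent in somatic cells. In male germ cells the methylation pattern is erased and built anew, and satellite DNA of bull sperm is known to carry less methylation than that of somatic tissues. Bisulfite converts unmethylated cytosine and leaves methylated cytosine unchanged, and methylation at a CpG position was therefore measured as the percent of its reads that still show a cytosine.

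The samples were ejaculated sperm from 18 adult Holstein bulls, with 1 library per bull. Bulls were placed in high and low groups for cow conception rate (CCR), gestation length (GL), body depth (BDE) and sire calving ease (SCE) by predicted transmitting ability, an estimate of the genetic merit that offspring inherit. The labels also give high and low groups for sire conception rate (SCR), whose basis is not given in the sources used here. The groups were, for GL, H03, H09, L03 and L05 (high) and H02, H05, L01 and L07 (low), for SCE, H03, H07 and L02 (high) and H01, H06 and L09 (low), for BDE, H02, L03 and L08 (high) and H05, H09 and L02 (low), for CCR, H08, H09 and L06 (high) and H06, L08 and L09 (low), and for SCR, H01, H02 and H03 (high) and L01, L02 and L03 (low). Several bulls belong to groups of more than 1 trait, and the 2 bulls H04 and L04 carry no trait label and entered no comparison. In bulls with an SCR label the H or L of the name matches the SCR group. It does not follow the groups of GL, SCE, BDE or CCR. The bulls listed from 2858992 positions in H01 to 22048556 in H08, each covered by at least 10 reads. No annotation of UMD3.1 was used, so neither the genes of the tiles nor markers of sperm or of other cells in semen were examined. No pair of the 153 possible pairs of bulls stood out as the same library, since at most 31.1% of the positions that 2 bulls shared on autosome 25 held equal values. The listing of H08 was unlike that of the others. On this autosome H08 shared 74.6% to 84.1% of the shorter list with each other bull. Pairs without H08 shared at most 65.4% (H01 and L06). The cause was not tested.

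The first megabase was far less methylated than the rest of the same autosomes in every bull. Averaged over tiles and then over the 29 autosomes, the level in the first megabase was lowest at 51.6% in L06, had a median of 56.9% and was highest at 60.2% in L03. The level of the remaining tiles ranged from 82.2% in L06 to 87.1% in L03 with a median of 85.7%, so the ranges lay far apart. The mean was 56.7% ± 2.29 (SD, n = 16 bulls) in the first megabase and 85.5% ± 1.15 in the rest. The difference of -28.9 ± 1.36 percentage points was negative in 16 of 16 bulls and ranged from -31.1 in L09 to -26.9 in L03. By sign flips of the differences over bulls, the two-sided permutation p was 3.05e-05, the smallest that 16 bulls allow. The bulls share 1 assembly, so this p measures only how alike the bulls are.

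The tiles had been chosen by listing, so their listing is given without a test. Among tiles that met the rule, the bulls listed 10.1 ± 3.94 positions per listed tile in the first megabase and 10.1 ± 4.85 in the rest. The average bull listed 83.9% ± 12.7 of these tiles in the first megabase and 87.8% ± 11.3 in the rest. Reads per position are listed for 6 bulls only, H01 to H03 and L01 to L03, where they averaged 12.4 ± 0.266 in the first megabase and 11.7 ± 0.311 in the rest. Coverage was higher in the first megabase in 6 of 6 bulls (exact sign-flip p = 0.03125, the smallest that 6 bulls allow). Only positions with at least 10 reads are listed, so this p concerns listed positions and cannot show the depth of all positions. The part of this coverage difference in the methylation result was not tested beyond a limit of 30 reads per position. Under that limit the difference in methylation of these 6 bulls was -28.5 points. The difference was -28.5 ± 1.14 points in the 6 bulls with listed coverage (exact sign-flip p = 0.03125) and -29.1 ± 1.47 points in the 10 labelled bulls without it (permutation p = 0.00195).

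Methylation rose with distance from the first base. In the first 100000 bp the tiles averaged 38.9% ± 2.28 (n = 16 bulls), with 34.3% in the lowest and 43.1% in the highest bull. The next bins of the same width averaged 43.3%, 48.7%, 52.5% and 54.1%. From 500000 bp onward the bins averaged 60.3%, 64.003%, 67.7%, 68.5% and 67.1% ± 2.09. The rise levelled off between 700000 and 1000000 bp. In 16 of 16 bulls the outermost bin was the lowest of all bins, and it lay 28.2 ± 1.01 points below the bin from 900000 to 1000000 bp. The gradient went on beyond the first megabase, with 73.9% ± 2.06 from 1 to 2 Mb, 77.8% ± 1.95 from 2 to 5 Mb, 82.2% ± 1.53 from 5 to 10 Mb and 86.1% ± 1.08 farther in. Therefore the difference grew to -38.4 points when only the first 500000 bp were taken and shrank to -20.3 points for the first 2000000 bp. Against the last megabase of the same autosomes, which averaged 84.1% ± 1.20, the difference was -27.4 points (permutation p = 3.05e-05 over 16 bulls). The last megabase lay below the rest in 14 of 29 autosomes, with its lowest levels of 69.7% on autosome 18 and 73.1% on autosome 2, and distance from the last base was not examined. These bins share bulls and chromosomes, so their order is a description.

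**Figure D1:**
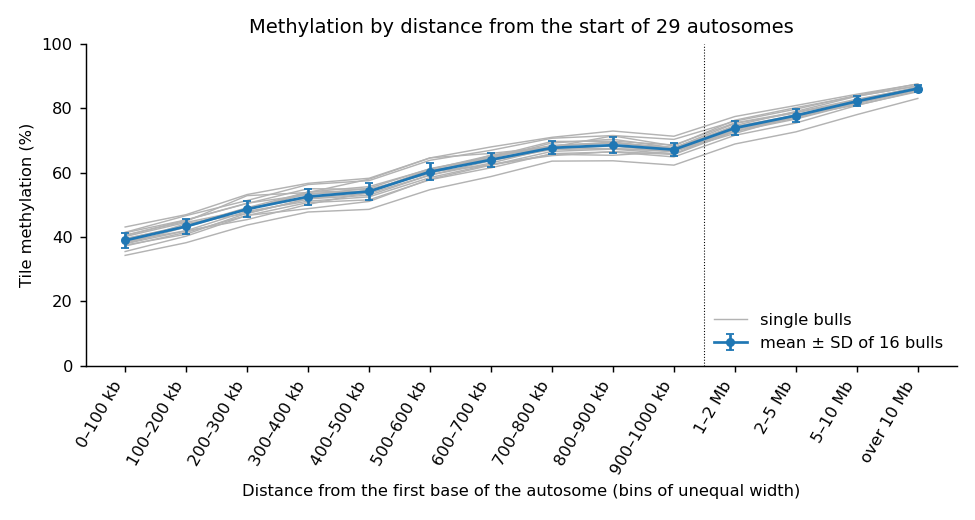
Mean methylation of tiles (y axis, percent) by distance from the first base of the 29 autosomes (x axis, bins of unequal width), with 1 grey line for each of 16 bulls, blue points for their mean and bars for the SD. Every line starts at its lowest point, between 34.3% and 43.1%, and the mean reaches 86.1% beyond 10 Mb; the dotted line marks the end of the first megabase.

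The autosomes differed widely in how far their first megabase departed from the rest. In 20 of the 29 autosomes the first megabase was more than 20 points lower, in 4 it was 5 to 20 points lower (autosomes 3, 8, 22 and 28), and in 5 it lay within 5 points (1, 11, 20, 25 and 27). The difference was negative in all 16 bulls in 26 autosomes. When positions were pooled in place of averaging tiles, the mean was lower in 26 autosomes, in 22 of them in all 16 bulls, and autosomes 1, 8 and 27 were higher by 3.92, 4.02 and 5.83 points. Autosome 27 was also higher against its last megabase and under 3 further settings, by 0.966 to 2.82 points, and autosome 20 in tiles listed in all 18 bulls, by 0.489 points. After Benjamini-Hochberg adjustment over 29 sign-flip permutation tests, 27 autosomes had an adjusted p under 0.05 with a lower first megabase and 0 with a higher one. Autosomes 1 and 25 did not pass.

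By the difference from the rest, autosome 19 departed most. Its level there was 14.3% in L09, 25.8% at the median and 30.5% in H06, against 85.6% ± 1.04 in the rest, a difference of -60.9 ± 4.50 points (adjusted permutation p = 3.40e-05 over 16 bulls). Of its 392 tiles, on average 60.7% per bull lay under 20% methylation. Autosome 23 followed with 21.2% in L06, 25.6% at the median and 32.5% in L03, which lay -58.6 ± 2.19 points from its rest (adjusted permutation p = 3.40e-05 over 16 bulls). Autosome 14 came next with 25.3% in L06, 34.0% at the median and 41.2% in L03, and a difference of -53.1 ± 4.29 points (adjusted permutation p = 3.40e-05 over 16 bulls). In these 3 autosomes the highest bull in the first megabase stayed far below any level of the rest. Autosome 14 was low in another manner than autosome 19, since 64.9% of its tiles were of intermediate level and 32.1% lay under 20%. Autosome 15, the next in this order with a difference of -53.03 ± 3.68 points, had a lower level than autosome 14, at 30.6% ± 3.63.

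At the other end of this order the first megabase could hardly be told from the rest. Autosome 1 had 81.7% in L06, 85.1% at the median and 87.9% in H06. Its mean of 85.3% ± 1.49 was level with the 85.3% ± 1.23 of its rest, and 10 of 16 bulls were lower in the first megabase (adjusted permutation p = 0.999). The sign of its difference turned under several settings, up to 3.92 points when positions were pooled and 10.1 points against its last megabase, which averaged 75.3%. Autosome 11 ranged from 84.3% in L06 over a median of 86.3% to 88.0% in H06. It was lower by a small amount in 16 of 16 bulls, with a difference of -0.688 ± 0.446 points (adjusted permutation p = 3.40e-05). This difference did not pass when positions were pooled (-0.289 points, permutation p = 0.634) or over the first 2000000 bp (-0.250 points, permutation p = 0.0644). Autosome 25 had 78.6% in H05, 82.8% at the median and 84.5% in H06, and differed from its rest by -0.688 ± 1.80 points, with 10 of 16 bulls lower (adjusted permutation p = 0.151). Under other settings it passed in either direction, with -5.70 points in tiles listed in all 18 bulls and -4.04 over the first 500000 bp (permutation p = 3.05e-05 for both, unadjusted), and 1.02 over the first 2000000 bp (permutation p = 0.0204, unadjusted). Even these autosomes held lower tiles close to their first base. The outermost 100000 bp averaged 69.4% on autosome 1, 70.9% on autosome 11 and 62.8% on autosome 25, while their next 100000 bp averaged 83.8%, 80.4% and 85.7%.

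**Figure D2:**
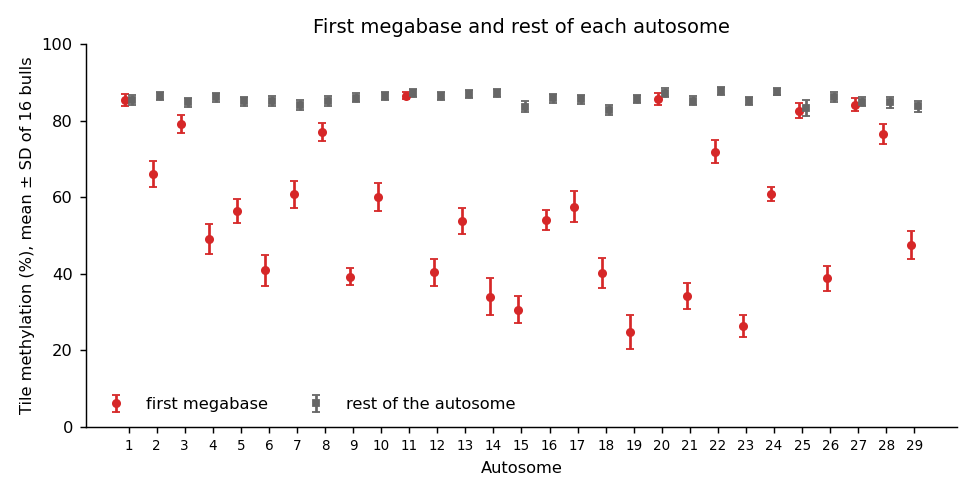
Methylation (y axis, percent) of the first megabase (red circles) and of the rest (grey squares) of each autosome (x axis), as mean and SD of 16 bulls. The rest lies between 82.7% and 87.7% in all autosomes, while the first megabase spreads from 24.7% on autosome 19 to 86.5% on autosome 11.

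The order of the autosomes followed no single profile. On autosomes 2, 10, 16 and 24 the outermost 100000 bp held 9.03%, 9.14%, 10.9% and 10.6% methylation, and the last 100000 bp of the megabase had come up to 87.7%, 90.2%, 86.5% and 91.4%. On autosome 23 the level stayed low throughout, with 41.8% in the outermost 100000 bp, 14.6% from 700000 to 800000 bp and 28.96% in the last 100000 bp. Autosome 6 even started higher, with 63.2%, and sank to 26.3% between 400000 and 500000 bp. Autosome 17 rose to 89.1% between 300000 and 400000 bp and returned to 28.3% between 700000 and 800000 bp. To see where each autosome came up to its own inner level, the first window of 0.5 Mb within 5 points of its mean beyond 10 Mb was located. This window began at the first base in 4 autosomes, at 1 Mb or farther in 19 and at 5 Mb or farther in 3, namely autosomes 9, 19 and 26, with the farthest at 7.5 Mb on autosome 9.

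The low mean of the first megabase came from tiles under 20% methylation as well as from tiles of 20 to 80%. On average over bulls, 23.6% ± 2.63 of its tiles lay under 20% methylation, against 2.72% ± 0.371 in the rest. The lowest bull in the first megabase (H06, 18.9%) exceeded the highest bull of the rest (3.57%). Tiles of 20 to 80% made up 36.3% ± 1.96 against 16.5% ± 2.17. Both shares were higher in the first megabase in 16 of 16 bulls (adjusted permutation p = 3.05e-05 over both tests). By the mean over bulls, 2731 tiles of the first megabase lay under 20%, 5195 lay between 20 and 80% and 5203 at 80% or more. The 2731 low tiles were 11.7% of all low autosomal tiles, although the first megabase held 1.12% of all tiles.

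**Figure D3:**
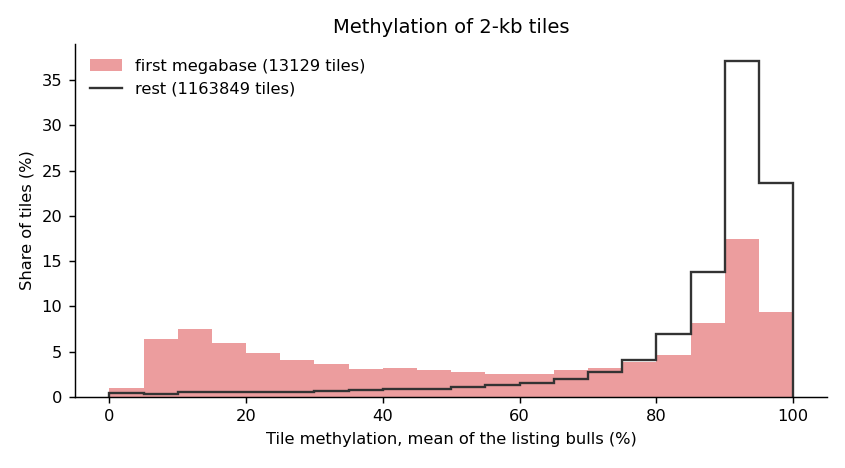
Share of tiles (y axis, percent) by their mean methylation over bulls (x axis, in steps of 5 points) for the first megabase (filled) and the rest (line). The first megabase has a broad second rise with 7.53% of its tiles between 10 and 15%, where the rest has 0.484%.

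Low tiles of the first megabase held fewer listed CpG positions than low tiles elsewhere. Counting positions that any of the 18 bulls listed, low tiles held a median of 29 positions in the first megabase and 73 in the rest, where 75.4% of the low tiles held 40 or more. In the first megabase 37.3% of the low tiles were that dense. Over all tiles the medians were close, 26 and 28 positions. The lower level was present at every density. Tiles with 11 to 20 positions averaged 55.1% ± 3.40 in the first megabase and 85.6% ± 1.31 in the rest, and tiles with 41 to 80 positions 69.9% ± 2.00 and 85.9% ± 1.13. The densest class, with 81 or more positions, averaged 36.2% ± 1.62 and 68.7% ± 1.48, and 60.9% of these tiles lay under 20% in the first megabase against 21.8% in the rest. Weighting the rest to the density of the first megabase left a difference of -27.7 points (permutation p = 3.05e-05 over 16 bulls).

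**Figure D4:**
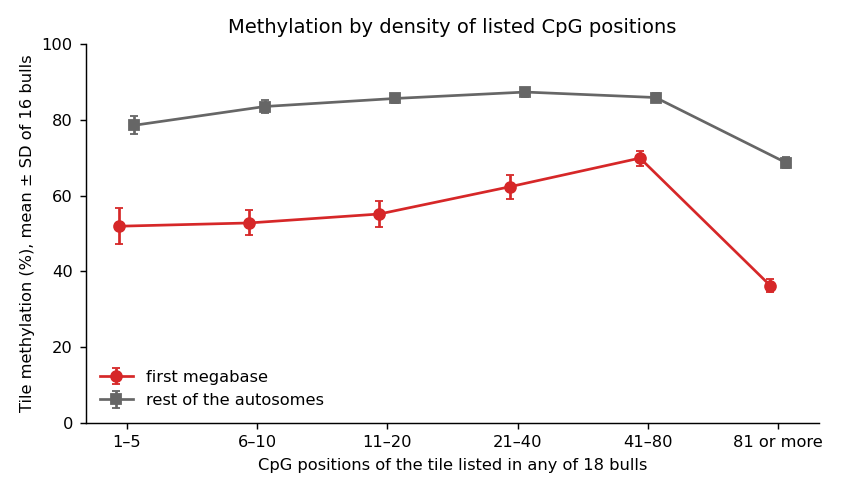
Tile methylation (y axis, percent, mean and SD of 16 bulls) by the number of CpG positions listed in the tile in any bull (x axis). The first megabase (red) lies below the rest (grey) in each of the 6 classes, and both fall in tiles with 81 or more positions.

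The intermediate tiles also differed in the levels of their single positions. In tiles whose mean lay between 20 and 80%, 58.3% ± 3.04 of the listed positions in the first megabase were themselves between 20 and 80% methylated, with 50.5% in the lowest and 64.2% in the highest bull. In intermediate tiles of the rest 40.1% ± 3.86 were, with a range from 32.5% to 46.8%, so the ranges of the bulls did not overlap. Positions at 80% or more made up 19.1% ± 4.42 of the positions in the former and 38.7% ± 4.21 in the latter, and positions under 20% made up 22.5% ± 4.07 and 21.2% ± 2.95. Intermediate tiles of the first megabase thus held mostly positions with methylated and unmethylated reads together, and those of the rest held a larger share of highly methylated positions. The levels of the tiles themselves differed within this class, since 61.5% of the intermediate tiles of the rest and 31.5% of those of the first megabase lay between 60 and 80%. Positions between 20 and 80% were nevertheless more frequent in the first megabase in each narrower class. They made up 57.5% ± 5.79 against 37.9% ± 4.50 in tiles of 20 to 40%, 70.3% ± 3.62 against 49.9% ± 4.70 in tiles of 40 to 60% and 45.1% ± 7.28 against 36.5% ± 5.07 in tiles of 60 to 80%. The ranges of the bulls were apart only in the class of 40 to 60%. In low tiles 79.1% ± 3.34 of the positions in the first megabase and 82.1% ± 3.62 in the rest were under 20%. Positions at 80% or more made up 0.250% ± 0.0666 and 0.912% ± 0.286 there. The low tiles also differed in level, since 122 of 2731 lay under 5% in the first megabase and 5448 of 20602 in the rest. These classes were formed from the same values, so no test was run on them.

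Low tiles of the first megabase lay side by side in long runs. Here a tile was called low if the median of the bulls listing it was under 20%, which held for 2868 tiles. They formed 857 runs of adjacent tiles, and 59.2% of them lay in the 148 runs of 5 or more tiles. In the rest 14.1% of 23653 low tiles lay in such runs, although the longest run there, of 204 kb, was longer than any in the first megabase. The longest run, chr16:8001-192000, spanned 92 tiles with 10882 positions listed in any bull. Its mean was 9.52% ± 1.35 over 16 bulls, with 7.43% in the lowest, 9.43% in the median and 12.2% in the highest. The run at chr29:344001-438000 averaged 8.49% ± 1.76 over 47 tiles. Autosome 19 held 2 neighbouring runs, chr19:352001-430000 with 8.66% ± 1.41 and chr19:436001-516000 with 8.92% ± 2.39. The run at chr24:32001-108000 averaged 9.75% ± 2.17 over 38 tiles. In these 5 runs no labelled bull exceeded 15.9%. Their number of positions listed in any bull ran from 30.1 per tile in chr19:436001-516000 to 118 in the run on autosome 16. The runs were chosen for their low level, which is therefore a description.

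The very first tile of most autosomes was low. The first listed tile started at base 1 in 23 autosomes and at 4001 at the latest. Its median over the listing bulls was under 20% in 18 autosomes, between 20 and 80% in 6 and at 80% or more in 5. The first tile of autosome 19, with 207 positions listed in any bull, ranged from 8.31% over a median of 11.6% to 14.2% in 16 bulls. That of autosome 9, with 178 positions, ranged from 9.38% over 12.6% to 15.1%. The tile chr1:1-2000 was also low, with a median of 9.23%, but it held only 5 listed positions and was listed in 11 of 16 bulls, from 4.17% to 41.7%. In contrast the first tile of autosome 3 had a median of 85.7% and a range of 82.5% to 91.0% in 16 bulls, and that of autosome 21, chr21:2001-4000, a median of 97.6% in 14 bulls. The start of an assembled autosome was therefore not low throughout.

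The bulls resembled each other in the first megabase. Over the 3439 tiles that all 18 bulls listed, the methylation of 2 bulls correlated with a median r of 0.939 and a range of 0.885 to 0.966, and over the 336855 such tiles of the rest with a median r of 0.844 and a range of 0.7003 to 0.924. These correlations run across tiles, which are not replicates, and the levels of the first megabase spread over a wider range. The standard deviation of a tile between bulls had a median of 8.15 points in the first megabase and 5.61 in the rest. At the same level it did not exceed the rest in the intermediate range, with 11.7 against 14.5 points in tiles of 20 to 40%, 14.9 against 17.0 at 40 to 60% and 13.9 against 14.9 at 60 to 80%. Below 20% it was 5.80 against 5.28 points, and at 80% or more 5.19 against 4.78. In tiles with 5 or more positions in each of 16 bulls these SDs were smaller. They were then 2.40 against 2.03 points below 20% and 2.92 against 2.97 at 80% or more, where the order turned. The order in the intermediate range stayed the same.

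A bull with lower methylation in the rest of its autosomes was also lower in the first megabase. Across the 16 bulls the levels correlated with Pearson's r = 0.899 (permutation p = 1e-05, the smallest that the permutations drawn can give, adjusted p = 2e-05) and Spearman's rho = 0.835 (permutation p = 0.00012). Without L06 and L03, which lay farthest from the median of the rest, r was 0.827 (permutation p = 0.00042). Within the 6 bulls with listed coverage r was 0.877 and rho was 0.657, and within the other 10 bulls r was 0.895 and rho was 0.806. As the second of 2 relations examined, the difference between first megabase and rest was set against the number of positions a bull listed per tile of the first megabase. Here r was -0.298 (permutation p = 0.268, adjusted p = 0.268) and rho was -0.509 (permutation p = 0.0463), and without H08 and L05 r was -0.601 (permutation p = 0.0221). This relation did not pass the adjustment and changed with the bulls included.

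A few tiles differed strongly between single bulls. Among the 707 tiles with at least 5 positions in each of the 18 bulls, whose SD between bulls had a median of 4.84 points, the 5 with the largest SD are described. The tile chr27:290001-292000 had an SD of 23.2 points and ran from 9.06% in H03 and 12.7% in L08 to 91.9% in H01 and 96.3% in L07. On its autosome the first megabase differed from the rest by -0.767 points (adjusted permutation p = 0.0195 over 16 bulls), or by 5.83 points when positions were pooled. The tile chr1:20001-22000 (SD 16.8 points) was at 11.8% in L07 and 13.3% in L04 and at 76.0% in H01. The tile chr27:402001-404000 (SD 15.96 points) was at 44.9% in L04 and 98.0% in H07. The tile chr18:660001-662000 (SD 15.8 points), the one with the most even listing, with 12 to 14 positions per bull, spanned 15.3% in H07 to 64.5% in L02. The tile chr11:154001-156000 (SD 14.8 points) had 2.69% in L03, 2.98% in L09 and 56.3% in H09. In the other 4 tiles the bulls listed different numbers of positions, from 5 to 37 in the first of them, and the part of this in their spread was not tested.

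The trait groups of the study were then compared within the first megabase. With 1 value per bull, the exact permutation test of 4 against 4 bulls can reach p = 0.0286 and that of 3 against 3 bulls only p = 0.1, and the 5 traits were adjusted together. High-GL bulls had 57.1% (H03), 54.8% (H09), 60.2% (L03) and 55.5% (L05) in the first megabase, and low-GL bulls had 56.8% (H02), 54.5% (H05), 55.2% (L01) and 57.1% (L07). The groups overlapped and differed by 1.04 points (exact permutation p = 0.514, adjusted p = 0.857). The GL difference turned to -0.723 points when positions were pooled and to -0.0719 without L03. High-BDE bulls had 56.8% (H02), 60.2% (L03) and 58.8% (L08), and low-BDE bulls had 54.5% (H05), 54.8% (H09) and 57.9% (L02). The BDE groups differed by 2.84 points, but L02 lay above H02 (exact permutation p = 0.2, adjusted p = 0.857). It was 1.41 points when positions were pooled. High-CCR bulls had 58.7% (H08), 54.8% (H09) and 51.6% (L06), and low-CCR bulls had 59.8% (H06), 58.8% (L08) and 54.2% (L09). They differed by -2.53 points (exact permutation p = 0.4, adjusted p = 0.857) and overlapped. Without L06 the CCR difference was -0.813 points, without H08 it was -4.36 points, and with pooled positions it was -2.76 points, which exceeded the pooled BDE difference in size. The difference was -0.295 points for SCE and -0.436 for SCR (adjusted exact permutation p = 0.9 for both). The SCE sign turned with pooled positions (0.634 points) and without H01, H06 or H07 (0.0886 to 0.904 points), and the SCR sign turned without L03 (0.796 points). When the rest of the same bull was subtracted, the differences between high and low groups were 0.366 points for GL, -0.219 for SCE, 1.87 for BDE, -0.997 for CCR and -0.00876 for SCR, each with an adjusted exact permutation p of 1.

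The groups mix bulls with and without listed coverage, except that the SCR bulls all have it and the CCR bulls all lack it. Within the former bulls the first megabase differed between high and low groups by 2.69 points for GL (2 bulls against 2), -0.723 for SCE (2 against 1) and 0.576 for BDE (2 against 1). Within the latter the differences were -0.612 (2 against 2), -0.656 (1 against 2) and 4.09 points (1 against 2). The sign for GL turned between these sets. For SCE and BDE 1 side of each set is a single bull, so these values have no replicate check.

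**Figure D5:**
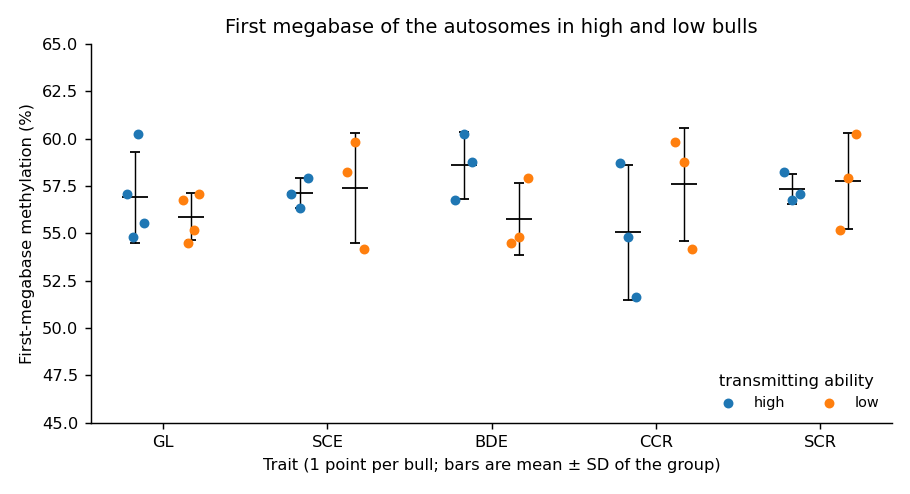
Methylation of the first megabase (y axis, percent, not starting at 0) for each bull of the high (blue) and low (orange) groups of the 5 traits (x axis), with bars for mean and SD. The groups overlap in all 5 traits, and the lowest point is L06 at 51.6% among the high-CCR bulls.

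Single tiles were tested over the whole genome by a logistic regression of methylated reads on the group. A tile was tested if each bull of the comparison listed it, and was called differentially methylated at q under 0.01 with a difference over 5 percentage points. Between 5098 (SCR) and 6155 (GL) tiles of the first megabase were tested. For GL 566 of them were called, 9.20% against a background of 8.75% of the 593044 tiles tested. Losses in high-GL bulls made up 212 (background 3.75% of all tested tiles) and gains 354 (background 4.99%). For SCE 355 of 5166 tiles were called, 6.87% against a background of 6.18%, with 235 losses (background 3.54%) and 120 gains (background 2.64%). For SCR 445 of 5098 tiles were called, 8.73% against a background of 8.68%, with 184 losses (background 4.54%) and 261 gains (background 4.13%). The SCR test used the listed read counts, whereas each position counted as 10 reads for the other traits. With 10 reads per position 288 SCR tiles were called, and the share over all tiles at that setting was not recorded. With 13 reads per position 489 were called, 9.59% against 9.87% of all tiles. For CCR 756 of 5802 tiles were called, 13.03% against a background of 11.1%, with 653 losses (background 8.48%) and 103 gains (background 2.58%). Without H08 the number for CCR rose to 1314 of 5943 tiles, 22.1% against 16.9% of all tiles, without L06 it was 531 of 5824, 9.12% against 8.79%, and without H01 that for SCR rose to 747 of 7466, 10.01% against 9.38%. The balance of losses and gains depended on single bulls for GL, CCR, SCE and SCR. Losses and gains over all tiles were not recorded for these sets of bulls. The total share called is therefore given, in the first megabase against all tiles. For GL the balance was 291 losses and 317 gains without L03 (8.92% against 8.58%) and 257 and 287 without H05 (8.77% against 8.42%). Without L05 it was 170 and 371 (8.73% against 7.84%). For CCR it was 332 losses and 199 gains without L06 (9.12% against 8.79%) and 417 and 154 without H06 (9.77% against 8.53%). Without H06 the SCE tiles turned to 116 losses and 190 gains (5.91% against 6.21%). The SCR tiles turned to 294 losses and 201 gains without L01 (9.497% against 9.255%) and to 247 and 245 without H02 (8.99% against 8.47%).

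BDE stood farthest from its background. Of 5622 tiles tested, 702 were called, 12.5% against a background of 7.57%. Gains in high-BDE bulls numbered 594 (background 4.71% of all tested tiles) and losses 108 (background 2.86%). The median difference over the tested tiles was 1.501 points in the first megabase and 0.557 points over all tested tiles. Called tiles were found in all bins of 100000 bp, from 10.1% to 16.5% of the tested tiles. Leaving out any 1 bull left between 593 and 745 called tiles, and the number of tested tiles changed as well. Without H05 the 593 called tiles were 10.5% of 5651 tested, against 7.06% of all tiles. Without H09 the 745 called tiles were 11.2% of 6651 tested, against 7.19% of all tiles. The share in the first megabase was lowest without L03 (10% against 6.93%) and highest without H02 (12.4% against 7.55%).

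The shares over all levels compare sets of unlike make-up, because intermediate tiles were called most often and were more frequent in the first megabase. Here the level of a tile was its mean over the bulls of the comparison, not over the 16 labelled bulls. A large difference between the groups thus itself moves a tile into the intermediate class. That intermediate tiles were called most often is therefore partly set by the definition of the class. Within the intermediate class BDE was the trait with the higher share in the first megabase, 28.3% against 22.0% in all other tested tiles of the genome. The other traits had lower shares in the first megabase than in these other tiles. They were 16.8% against 26.5% for GL, 11.1% against 17.0% for SCE, 27.3% against 30.7% for CCR and 14.5% against 23.2% for SCR. Tiles under 20% were called less often in the first megabase for each trait, from 2.24% against 12.5% for GL to 4.60% against 10.1% for BDE. The reads in the test grow with the listed positions of a tile, and low tiles held a median of 29 positions against 73. Their median absolute group difference was 1.39 against 1.40 points for GL. For the other traits it was larger in the first megabase, with 2.21 against 1.66 points for BDE. The part of the number of positions in these shares was not tested. Tiles at 80% or more were called slightly more often there for each trait, 7.33% against 5.51% for GL, 6.21% against 4.95% for BDE and 6.58% against 6.16% for SCR, for example. These shares were not tested against each other.

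Averaged by autosome, the first megabase was higher in high-BDE bulls in 28 of 29 autosomes, and the rest of the autosomes in 29 of 29. For CCR the high group was lower in 27 of 29 and in the rest in 29 of 29, and for GL it was higher in 22 of 29 and in the rest in 29 of 29. For SCE it was higher in 13 and in the rest in 8, and for SCR in 10 and in the rest in 0. The autosomes of a trait share the same bulls, so these counts are not independent. The groups of SCE and of CCR did not overlap in the first megabase of 1 autosome each, and those of GL and SCR in 0. In the rest this held for 0 autosomes in each trait. The BDE groups did not overlap in the first megabase of 6 autosomes. Autosome 14 differed most, with 38.4% (H02), 41.2% (L03) and 41.2% (L08) in high-BDE bulls and 30.3% (H05), 26.9% (H09) and 30.3% (L02) in low-BDE bulls. This difference of 11.1 points compared with 0.817 points in the rest of that autosome. Autosome 14 was singled out after its values were seen, so it is given without a test. The CCR groups share H09 and L08 with the BDE groups on opposite sides, and their largest difference, -6.04 points, also fell on autosome 14.

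The number of called tiles depended strongly on the test. With limma, which measures the spread between bulls, and with an F test that allows for overdispersion, 0 tiles of the first megabase had an adjusted p under 0.01 for any trait, and 0 tiles of the genome had. The smallest limma adjusted p in the first megabase was 0.378 (CCR). At an unadjusted limma p under 0.05 and a difference over 5 points there were 243 tiles for GL (background 3.59%), 137 for SCE (background 3.30%), 276 for BDE (background 3.84%), 176 for CCR (background 3.61%) and 140 for SCR (background 3.40%). The BDE share was 4.91% of its tested tiles and the GL share 3.95%, and the other 3 shares, 2.65% to 3.03%, lay below their background. The F test gave 255 (background 3.47%), 126 (background 2.46%), 381 (background 2.81%), 174 (background 2.89%) and 135 tiles (background 2.72%) in the same order. Tiles whose groups did not overlap numbered 202 for GL (3.28%, background 3.30%), 470 for SCE (9.10%, background 9.26%), 846 for BDE (15.0%, background 10.1%), 587 for CCR (10.1%, background 9.94%) and 473 for SCR (9.28%, background 9.13%).

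When the groups were compared only at positions that both groups had listed in 1 bull or more, with a test stratified by position, the number of called tiles in the first megabase fell to 159 for GL, 78 for SCE, 311 for BDE, 358 for CCR and 39 for SCR. For BDE this was 5.54% of the tiles against a background of 1.60%, with 288 gains and 23 losses. For CCR it was 6.17% against 4.40%, for GL 2.58% against 2.19%, for SCE 1.51% against 1.31% and for SCR 0.769% against 1.17%. This setting changes the positions and the test together. Of the tiles called over all positions, those that kept their direction and a difference over 5 points at matched positions were 332 of 566 for GL (58.7%), 213 of 353 for SCE (60.3%), 532 of 701 for BDE (75.9%), 556 of 756 for CCR (73.5%) and 256 of 444 for SCR (57.7%). Over the genome the corresponding shares were 44.0%, 54.0%, 51.3%, 62.2% and 51.5%.

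For each trait the called tiles with the largest loss and gain among those whose groups did not overlap are given next, with their difference at matched positions. Most of them rest on few positions, since 8 of the 10 tiles held only 1 listed position in at least 1 bull of the comparison. For BDE the tile chr1:568001-570000 had 41.1% (H02), 27.3% (L03) and 31.1% (L08) in high bulls and 94.7% (H05), 75.0% (H09) and 98.3% (L02) in low bulls, and at its 4 matched positions the difference was -50.4 points (q = 8.48e-08). This q counts 10 assumed reads per position and covers counting error only, and the tile had been chosen for its difference in the same values. Over all its positions the adjusted p was 0.99998 with limma and 0.99994 with the F test. Among these tiles it alone was called at matched positions. The BDE gain at chr27:288001-290000 had 90.0%, 75.0% and 80% in H02, L03 and L08 and 43.8%, 11.7% and 46.2% in H05, H09 and L02, where L03 and L08 each listed 1 position. Its 2 matched positions differed by -0.859 points. Its difference of 63.1 points over all positions was 39.2 points without H09. This tile adjoins the most variable tile described above.

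For GL the largest loss, chr8:382001-384000, had 14.6% (H03), 21.2% (H09), 0.0% (L03) and 4.2% (L05) in high bulls and 43.2% (H02), 45.6% (H05), 63.7% (L01) and 59.2% (L07) in low bulls. L03 listed 1 position there. Its 6 matched positions differed by -5.86 points (q = 0.499). The largest GL gain, chr28:346001-348000, had 87.1%, 100%, 100% and 95% in high bulls and 0.0%, 47.7%, 36.3% and 66.7% in low bulls in the same order, where H09, L03 and H02 each listed 1 position. It differed by 8.53 points at 3 matched positions (q = 0.238). The tiles of the other traits had from 0 to 6 matched positions. For CCR chr24:850001-852000 differed by -57.1 points over all positions and -2.68 at 6 matched positions, and chr16:608001-610000 by 81.9 and 0 points at its 1 matched position. For SCR chr3:480001-482000 differed by -42.8 points and by -22.2 at 4 matched positions, and it was no longer called without H03 (-27.2 points, q = 0.0467). The SCR gain chr12:396001-398000 differed by 59.9 and -1.08 points. For SCE chr24:740001-742000 differed by 42.1 and -11.4 points, and chr18:416001-418000 by -38.2 points with no matched position. The latter was no longer called without H07 (q = 0.0124) or without H06 (q = 0.0104).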

How the data were processed

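The authors trimmed the reads (FastQC 0.11.2, Trim Galore 0.4.0), mapped them to UMD3.1 with Bowtie2 and extracted methylation with Bismark 0.14.5. The deposited values of every bull are percent methylation at CpG positions with at least 10 reads, the strands being separate positions. For 6 bulls the authors also deposited the count of reads per position, from 10 to 100; the depth of the other 12 bulls is unknown, so no counting interval was computed. The mean percent of a bull's listed positions was its tile level. Autosomes were weighted equally in the means and tile shares per bull and in the bins of distance. The density classes, the numbers of tiles by level and the shares of positions counted all tiles or positions alike. Bulls were compared by two-sided sign flips or exact permutations. In the tile tests each position counted as 10 reads (SCR: listed counts), with q by a simplified SLIM, since the design had assumed coverage in all bulls. The test at matched positions counted 10 reads per position for SCR too. Alternatives were the F test, limma 3.58.1 (R 4.3.3) on log2 ratios of the deposited values with 1 read added, Benjamini-Hochberg adjustment, matched positions (Cochran-Mantel-Haenszel test), other windows, listing rules and weights, and each bull left out. Python 3.11.15, NumPy 2.4.6 and SciPy 1.17.1 were used, and the tests were tested on simulated data. Named regions were the 3 autosomes at each end of the order of differences, the 5 longest low runs, the 5 most variable tiles, the first tile of each autosome, and for each trait the largest called loss and gain without overlap of the groups. Regions and settings were chosen with earlier results of these data known. H04 and L04 were unassigned. Genes and sequences of the tiles were not analysed here.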

Additional observations from a re-analysis of the deposited data

How the results depend on the processing

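The difference between first megabase and rest stayed negative under 57 alternatives, between -38.4 and -20.3 points, and without any 1 bull between -29.0 and -28.7. The split of bulls by listed coverage, the narrower classes of intermediate tiles, and 10 reads per position for SCR were added after seeing the data. The last of these gave 288 called tiles, without a recorded share over all tiles. Listed positions per tile differed between -0.0700 and 0.174 without 1 bull, so their sign was not fixed. The coverage difference stayed between 0.670 and 0.709 reads, but 5 bulls cannot give an exact p under 0.0625. Autosome 1 turned positive when positions were pooled (3.92 points), with at least 3 positions per tile (0.246), in tiles listed in all 18 bulls (0.324), with weighting by density (1.01), for the first 2000000 bp (1.15), with tiles shifted by 1000 bp (0.0215) and against the last megabase (10.1), and lay between -0.101 and 0.0876 without 1 bull. Autosome 25 turned positive for the first 2000000 bp (1.02) but was at -5.70 points in tiles listed in all 18 bulls and -4.04 for the first 500000 bp, autosome 11 no longer passed when positions were pooled or for the first 2000000 bp, and autosomes 8 and 27 were higher when positions were pooled (4.02 and 5.83). The numbers of called tiles fell to 0 with limma and with the F test for all traits. At matched positions they were 159 (GL), 78 (SCE), 311 (BDE), 358 (CCR) and 39 (SCR). With at least 3 positions per tile fewer tiles were tested. The called tiles were then 318 for GL (9.09%, background 8.77%), 172 for SCE (8.64%, background 6.63%) and 485 for BDE (17.0%, background 8.15%). For CCR they were 457 (14.7%, background 11.4%) and for SCR 206 (10.5%, background 9.33%). A threshold of 10 points gave 361 (GL), 261 (SCE), 573 (BDE), 521 (CCR) and 282 (SCR). The share over all tiles was not recorded at this threshold, so these counts cannot be set against a background. For SCE 13 reads per position gave 575 (11.1%, background 10.1%). Without 1 bull the called tiles for CCR ranged from 531 (9.12%, background 8.79%) to 1314 (22.1%, background 16.9%). For SCR they ranged from 490 (9.41%, background 8.87%) to 747 (10.01%, background 9.38%). Trait differences in the level of the first megabase turned when positions were pooled, to -0.723 points for GL and 0.634 for SCE, and moved to 1.41 for BDE and -1.37 for SCR. After subtraction of the rest the pooled differences were 0.476 (GL), -0.360 (SCE), 0.899 (BDE), -1.75 (CCR) and -0.224 (SCR). In tiles listed in every bull of the comparison the levels differed by 1.10 (GL), -0.625 (SCE), 2.26 (BDE), -2.01 (CCR) and -0.874 (SCR). After subtraction these were 0.557, -0.629, 1.61, -0.592 and -0.357. Without 1 bull the trait differences in level ranged from -0.0719 to 1.74 for GL, -1.90 to 0.904 for SCE, -1.74 to 0.796 for SCR, -4.36 (H08) to -0.813 (L06) for CCR and 2.01 to 3.92 for BDE. After subtraction of the rest they ranged from -0.342 to 0.790 for GL, -1.47 to 0.460 for SCE, -0.756 to 0.792 for SCR, -2.31 (L09) to -0.307 (L08) for CCR and 1.46 to 2.58 for BDE. At matched positions the SCE gain on autosome 24 (-11.4 points), the BDE gain on autosome 27 (-0.859) and the SCR gain on autosome 12 (-1.08) turned negative. The cause of these changes was not tested. No paired analysis was possible because the groups hold different bulls and the numbers in their names are not stated to pair animals.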

Other observations

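The 2 bulls without a trait label had levels within the range of the others. H04 had 57.3% in the first megabase and 86.7% in the rest, a difference of -29.4 points, and L04 had 54.8% and 85.1%, a difference of -30.3 points. Their outermost 100000 bp averaged 40.1% and 36.3%. In the run on autosome 16 they had 10.1% and 8.82%. In H04 29 autosomes and in L04 28 autosomes were lower in the first megabase than in the rest. In none of 12 sets of 4 values, each from the high or the low GL bulls, did 1 bull stand apart by Dixon's test. The sets came from the same bulls and included the named GL tiles, which had been chosen for groups without overlap.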
